A study of Mus musculus with 6 samples.

Results

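Of the 21959 genes in the count table of this series, 8 were followed here, the genes that write, maintain and remove methylation on DNA. They were chosen by family: the DNA methyltransferases Dnmt1, Dnmt3a and Dnmt3b, the catalytically inactive cofactor Dnmt3l, the maintenance cofactor Uhrf1, and the TET dioxygenases Tet1, Tet2 and Tet3. The rule lists genes by name and uses no threshold on their values. RNA was sequenced from a mouse gastric adenocarcinoma line, MPC, kept as the untreated control (3 libraries), and from MPC-PTX, the same line after more than 30 cycles of paclitaxel (PTX), a drug that stabilises microtubules (3 libraries). The study's own text calls these lines MTC and MTC-R. Both groups carry the genotype CDH1-/-;Trp53-/-. The deletions were induced with tamoxifen in gastric organoids from C57BL/6 J mice with floxed Trp53 and Cdh1 and a Mist1-CreER transgene. MPC was expanded from a single cell of a tumour that these organoids formed in a BALB/c nude mouse, and the methods state that the PTX-resistant line also went through monoclonal selection. Each group therefore rests on 1 clone, and PTX exposure and differences between clones cannot be told apart. The labels place all 6 libraries in batch 1 and do not say whether replicates were separate cultures, so p-values measure only the spread between these libraries, which may be technical. The libraries were poly-A selected, and the methylation of DNA itself was not measured.

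Methylation in mammals sits mostly on the cytosine of CpG dinucleotides. After replication, UHRF1 binds the hemimethylated CpG and brings in DNMT1, which copies the mark to the new strand. DNMT3A and DNMT3B place methylation on unmethylated DNA, and DNMT3L stimulates them in germ cells and early embryos. The TET enzymes oxidise 5-methylcytosine to 5-hydroxymethylcytosine and further products, with iron and 2-oxoglutarate, and the oxidised base is then lost by dilution or replaced by base excision repair that starts with TDG. In gastric cancer, gain of methylation at promoter CpG islands is a well known feature.

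The 4 sequences that follow are promoter windows of RefSeq (assembly GRCm38.p6), 250 bases immediately upstream of an annotated start, 5′ to 3′ on the strand of the gene with each CpG in capitals. They show the genes that moved between the lines (Tet3 and Dnmt3b) beside the maintenance pair (Dnmt1 and Uhrf1). Where a gene had several starts, the window with the most GENCODE starts within 100 bases was taken, and on a tie the one with the most CpG. Uhrf1 had such a tie, and its other window (chr17:56303087-56303336, plus strand) held 10 CpG. Windows lie at chr6:83441679-83441928 (Tet3, minus strand), chr2:153649199-153649448 (Dnmt3b, plus strand), chr9:20952624-20952873 (Dnmt1, minus strand) and chr17:56304063-56304312 (Uhrf1, plus strand).
Tet3: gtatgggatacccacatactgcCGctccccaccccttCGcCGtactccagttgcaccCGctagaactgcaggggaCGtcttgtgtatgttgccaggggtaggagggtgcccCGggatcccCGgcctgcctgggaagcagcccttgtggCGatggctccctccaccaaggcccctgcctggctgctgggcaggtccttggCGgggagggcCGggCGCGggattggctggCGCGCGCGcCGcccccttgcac
Dnmt3b: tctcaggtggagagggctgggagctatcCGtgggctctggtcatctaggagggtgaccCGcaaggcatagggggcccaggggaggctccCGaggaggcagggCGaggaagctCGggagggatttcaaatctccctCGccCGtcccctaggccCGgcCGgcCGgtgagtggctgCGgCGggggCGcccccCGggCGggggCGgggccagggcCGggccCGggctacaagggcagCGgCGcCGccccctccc
Dnmt1: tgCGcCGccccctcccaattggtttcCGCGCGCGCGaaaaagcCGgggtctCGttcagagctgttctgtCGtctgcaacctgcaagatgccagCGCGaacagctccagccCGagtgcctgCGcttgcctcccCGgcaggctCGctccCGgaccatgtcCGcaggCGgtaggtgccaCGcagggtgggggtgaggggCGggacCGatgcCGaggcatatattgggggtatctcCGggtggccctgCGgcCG
Uhrf1: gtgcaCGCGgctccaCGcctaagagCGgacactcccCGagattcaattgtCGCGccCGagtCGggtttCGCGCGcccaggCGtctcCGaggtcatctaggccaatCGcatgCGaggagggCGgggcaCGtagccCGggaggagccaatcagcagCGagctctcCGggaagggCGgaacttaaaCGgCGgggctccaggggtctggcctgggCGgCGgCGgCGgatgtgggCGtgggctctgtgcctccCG

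The 4 windows were CpG rich. Tet3 held 17 CpG, Dnmt3b 21, Dnmt1 26 and Uhrf1 30, where the median of 32851 RefSeq windows of that length was 6. In the chosen windows of the other members, Tet2 held 51 CpG, more than 99.9% of all windows, Dnmt3a and Tet1 held 15 each, and Dnmt3l held 3. Windows at other starts differed, with 40 and 38 CpG for Dnmt3a, 7 and 2 for Dnmt1, and 5 and 4 for Dnmt3l. The Tet1 window had 0 GENCODE starts within 100 bases. For Tet3, 1 of 2 basic GENCODE transcripts started within 100 bases of its window, and the annotated gene reaches further upstream, to 83459084 on chromosome 6. The Tet3 window is thus 1 annotated start and not the only one. The E2F motif letters TTTCCCGC, TTTGGCGC, TTTCGCGC and TTTGCCGC were searched on both strands. TTTCGCGC was found once in the Dnmt1 window and once in the Uhrf1 window, and none of the 4 motifs was found in the chosen windows of the other 6 members or in the tied window of Uhrf1. Of all windows, 1.9% held a match. The match is a description of letters, and these motifs overlap CpG themselves.

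Across the family, the transcripts of Tet3 and Dnmt3b were higher in MPC-PTX than in MPC, and no member was lower. With edgeR (quasi-likelihood test, Benjamini-Hochberg adjustment over 11795 tested genes), 2 of the 7 tested members were called higher in MPC-PTX at an adjusted p of 0.05, beside 14.1% of all tested genes. Lower calls were 0 of 7, beside 15.6% of all tested genes, and calls in either direction were 2 of 7, beside 29.7%. The libraries of the lines did not overlap for 2 of the 7 members, beside 46.9% of all tested genes, and both members had MPC-PTX above. At an unadjusted p of 0.05 the counts were 2 higher and 0 lower, and the share of all tested genes at that threshold is not given here. DESeq2 called 1 member higher and 0 lower, beside 1456 genes higher and 1957 lower over the whole table. No member passed a log2 fold change of 1, as 3.54% of tested genes did upward and 4.2% downward. The share of 28.6% over 7 members rests on 2 genes. The median log2 fold change was 0.17 over the tested members and 0.04 over all tested genes. Levels are given as CPM (counts scaled to a common library size) and were computed from the deposited counts with TMM.

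**Figure D1:**
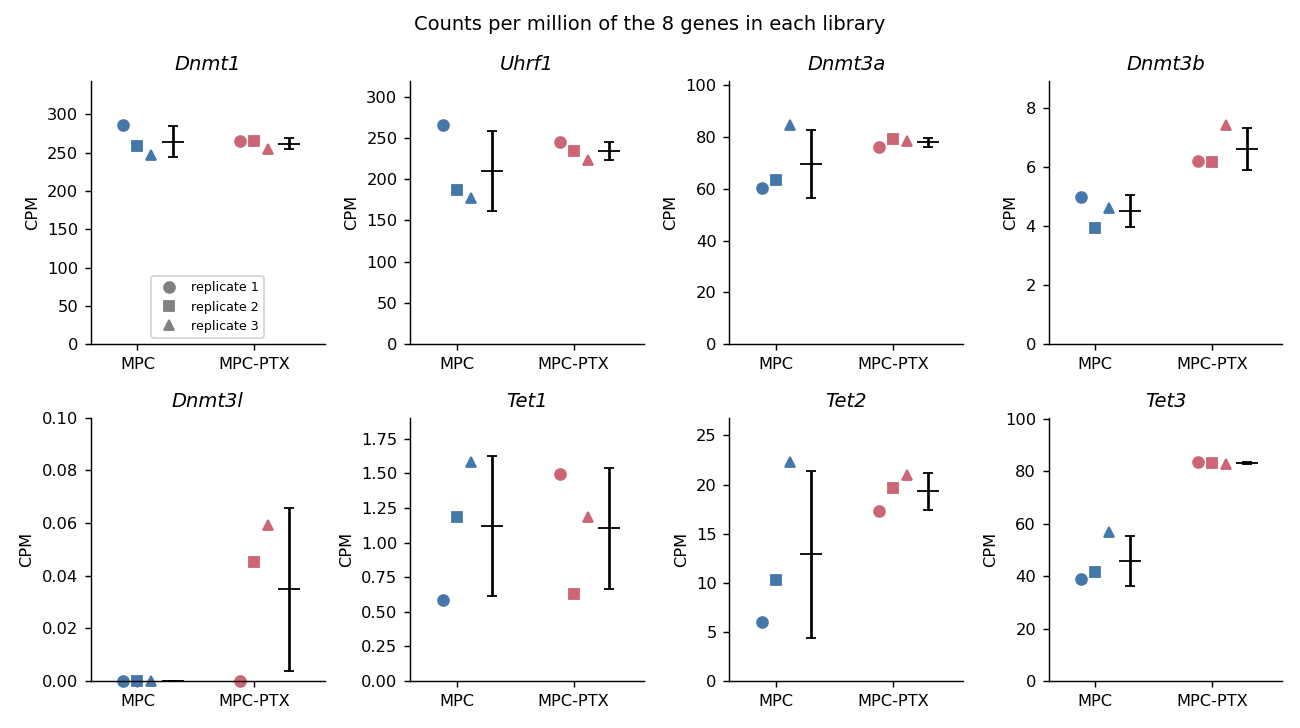
CPM of each of the 8 genes in the 3 MPC and 3 MPC-PTX libraries, 1 panel a gene on a linear axis from 0, with a marker shape per replicate and black lines at the mean ± SD of each line. The MPC-PTX libraries of Tet3 (82.88 to 83.76 CPM) and of Dnmt3b (6.176 to 7.426 CPM) lie above every MPC library, while the other tested genes overlap between lines.

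The maintenance pair was abundant in both lines and neither gene passed the test. Dnmt1, the maintenance methyltransferase (chromosome 9, 20907209 to 20959888 of GRCm38, minus strand), had 286.3, 259.3 and 247.3 CPM in MPC and 265.6, 265.9 and 254.2 CPM in MPC-PTX. All MPC-PTX libraries lay inside the MPC range. The log2 fold change was -0.01 (standard error 0.07, adjusted p = 0.905, edgeR). Its means were 264.3 ± 19.9 CPM in MPC and 261.9 ± 6.71 CPM in MPC-PTX (SD, n = 3).

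Uhrf1 (chromosome 17, 56303321 to 56323486, plus strand) had 265.9, 187.2 and 177.4 CPM in MPC and 245.4, 234.3 and 223.7 CPM in MPC-PTX. MPC replicate 1 was the highest library of all and the other 2 MPC libraries were the lowest, so the groups overlapped. The log2 fold change was 0.16 (standard error 0.15, adjusted p = 0.476, edgeR). The value depended on single MPC libraries: it was 0.36 (adjusted p = 0.00513, edgeR) without MPC replicate 1 and 0.00 (adjusted p = 0.996) without MPC replicate 3.

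Among the de novo enzymes, Dnmt3a was the more abundant gene and Dnmt3b the one that rose. Dnmt3b (chromosome 2, 153649450 to 153687730, plus strand) had 94, 76 and 96 counts in MPC and 145, 137 and 125 in MPC-PTX. In CPM this was 4.994, 3.918 and 4.613 against 6.194, 6.176 and 7.426, and every MPC-PTX library exceeded every MPC library, as in 24.2% of all tested genes. The means were 4.508 ± 0.546 and 6.599 ± 0.717 CPM (SD, n = 3), a 1.46-fold difference (log2 fold change 0.54, standard error 0.15, adjusted p = 0.0314, edgeR). The direction held in all 15 settings tried, with log2 fold changes from 0.45 to 0.62, but the call held in 10. With DESeq2 the adjusted p was 0.0585. It was 0.0993 without MPC replicate 2, 0.0774 without MPC-PTX replicate 1, 0.0783 without MPC-PTX replicate 2 and 0.12 without MPC-PTX replicate 3 (edgeR).

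Dnmt3a (chromosome 12, 3806007 to 3914443, plus strand) had 60.46, 63.46 and 84.71 CPM in MPC and 76.16, 79.44 and 78.54 CPM in MPC-PTX. MPC replicate 3 was the highest library and the other 2 MPC libraries were the lowest. The log2 fold change was 0.17 (standard error 0.13, adjusted p = 0.372, edgeR). Without MPC replicate 3 it was 0.28 and passed the test (standard error 0.06, adjusted p = 0.00392, edgeR), and after a correction for GC content and length it was 0.04 (standard error 0.06). The gene shares 133 exon bases with the antisense gene Dnmt3aos, and whether counting used strand is not given in the sources used here.

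Dnmt3l was at or near 0 in both lines. It had 0 counts in each MPC library and 0, 1 and 1 counts in MPC-PTX, and it was removed by the filter on low counts. The 3 counts that a total of 0 allows equal 0.0501 CPM over the MPC libraries, and the 2 counts seen in MPC-PTX are below that floor, so no fold is given. Such limits cover counting error only.

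Of the TET genes, Tet3 rose, Tet2 varied too much in MPC to call, and Tet1 was scarce. Tet3 (chromosome 6, 83362373 to 83459084, minus strand) had 733, 809 and 1180 counts in MPC and 1961, 1846 and 1395 in MPC-PTX. In CPM the MPC libraries were at 38.94, 41.71 and 56.70 and the MPC-PTX libraries at 83.76, 83.22 and 82.88. The groups did not overlap, and the MPC-PTX libraries lay within 1 CPM of each other while MPC replicate 3 stood above the other MPC libraries. The means were 45.78 ± 9.55 and 83.29 ± 0.447 CPM (SD, n = 3), a 1.82-fold difference (log2 fold change 0.86, standard error 0.14, adjusted p = 0.00391, edgeR). Tet3 passed the test in all 15 settings, with log2 fold changes from 0.71 (standard error 0.07, GC and length correction) to 0.99 (without MPC replicate 3).

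Tet2 (chromosome 3, 133463679 to 133545139, minus strand) had 113, 200 and 465 counts in MPC and 405, 437 and 353 in MPC-PTX. In CPM the MPC libraries ran 6.004, 10.31 and 22.34 and the MPC-PTX libraries 17.3, 19.7 and 20.97. MPC replicate 3 was the highest of all 6 libraries, and the other 2 MPC libraries were below every MPC-PTX library. The means were 12.89 ± 8.47 and 19.32 ± 1.86 CPM (SD, n = 3), and the log2 fold change of 0.58 did not pass (standard error 0.42, adjusted p = 0.348, edgeR). Without MPC replicate 3 it was 1.18 (standard error 0.21, adjusted p = 0.00132, edgeR), and without MPC replicate 1 it was 0.24 (adjusted p = 0.618, edgeR). Tet2 shares 43 exon bases with the antisense gene Gm42567.

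Tet1 (chromosome 10, 62804570 to 62908996, minus strand) had 11, 23 and 33 counts in MPC and 35, 14 and 20 in MPC-PTX. Both lines spanned about the same range, 0.5844 to 1.586 CPM in MPC and 0.6312 to 1.495 CPM in MPC-PTX. The log2 fold change was -0.03 (standard error 0.44, adjusted p = 0.965, edgeR), and at this depth its sign changed between settings, from -0.34 to 0.26.

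**Figure D2:**
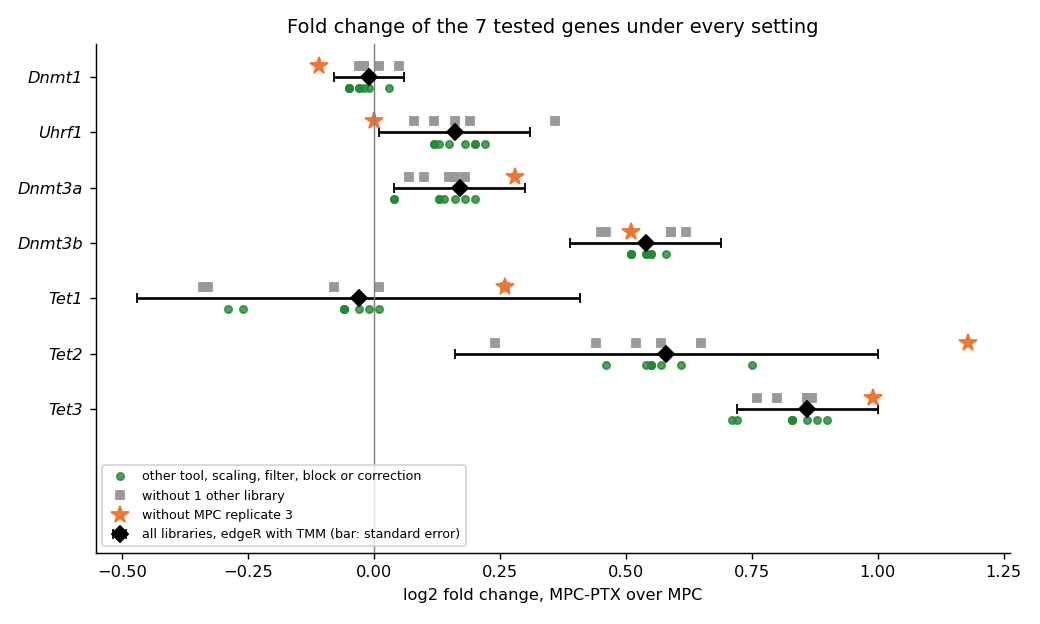
Log2 fold change of MPC-PTX over MPC for the 7 tested genes in 15 settings. Black diamonds with bars are the values of edgeR with TMM and their standard errors, orange stars the fit without MPC replicate 3, grey squares the fits without another library and green points the other alternatives. Tet3 stays between 0.71 and 0.99 and Dnmt3b between 0.45 and 0.62, while Tet2 runs from 0.24 to 1.18.

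To compare genes with each other, CPM were divided by the length of the longest basic GENCODE transcript in kilobases (RPKM). On this scale Uhrf1 was the highest member (58.6 ± 13.5 RPKM in MPC and 65.4 ± 3.02 in MPC-PTX, SD, n = 3) and Dnmt1 came next (45.0 ± 3.4 and 44.6 ± 1.14). In MPC the ranges of Uhrf1 (49.5 to 74.1 RPKM) and Dnmt1 (42.1 to 48.8 RPKM) did not overlap. Dnmt3a followed at 7.18 ± 1.36 RPKM in MPC and 8.06 ± 0.175 in MPC-PTX, and Tet3 at 4.2 ± 0.876 and 7.64 ± 0.041. In MPC-PTX the lowest Dnmt3a library (7.86 RPKM) was still above the highest Tet3 library (7.68 RPKM), and a different choice of transcript length could reorder this pair. Tet2 (1.4 ± 0.923 RPKM in MPC and 2.11 ± 0.203 in MPC-PTX) and Dnmt3b (1.04 ± 0.126 and 1.53 ± 0.166) were lower. Their MPC ranges overlapped, and Tet1 lay far below at 0.0778 ± 0.0351 and 0.0769 ± 0.0305.

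The summed level of the 3 catalytic methyltransferases overlapped between lines, and that of the 3 TET genes did not. Dnmt1, Dnmt3a and Dnmt3b together gave 56.17, 51.63 and 51.95 RPKM in MPC and 54.55, 54.94 and 53.13 RPKM in MPC-PTX, of which Dnmt1 made up 81.1% to 86.8%. The TET genes together gave 4.266, 5.031 and 7.744 RPKM in MPC and 9.671, 9.823 and 9.968 RPKM in MPC-PTX. Tet3 made up 67.1% to 83.7% of the TET sum in MPC and 76.2% to 79.4% in MPC-PTX. The ratio of the methyltransferase sum to the TET sum was 13.2, 10.3 and 6.71 in MPC and 5.64, 5.59 and 5.33 in MPC-PTX. These sums are ratios of transcript levels, not of enzyme activities, and were not tested.

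**Figure D3:**
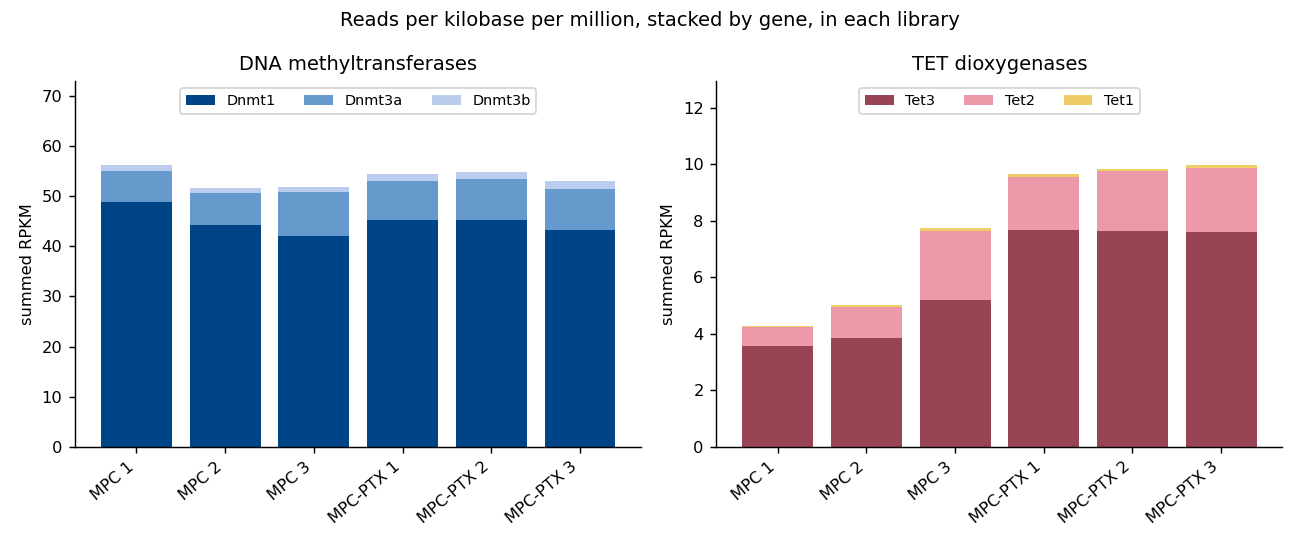
Length-scaled levels (RPKM, longest basic transcript) of the methyltransferases and of the TET genes in each of the 6 libraries, stacked by gene from 0. The methyltransferase bars stand between 51.63 and 56.17 RPKM in both lines, and the TET bars rise from 4.266, 5.031 and 7.744 RPKM in MPC to between 9.671 and 9.968 RPKM in MPC-PTX.

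MPC replicate 3 bears on most of these values. Over 11776 genes, the log2 ratio of MPC replicate 3 to MPC replicate 1 had a Spearman rho of 0.47 with transcript length and of -0.57 with GC content, a description across genes of 2 libraries. The tested members run from 3586 bases (Uhrf1) to 14369 bases (Tet1) and from 43.7% GC (Tet1) to 54.0% GC (Dnmt1). Each member was therefore set beside tested genes of similar length (up to 25% longer, or shorter by that factor) and GC content (within 2 percentage points). For Tet1 the log2 ratio of replicate 3 to replicate 1 was 1.3, near the median of 1.24 over 45 similar genes. For Tet2 it was 1.88, above the median of 0.69 and the upper quartile of 1.0 over 199 similar genes. For Uhrf1 it was -0.58, below the median of -0.15 and the lower quartile of -0.3 over 678 similar genes. The ratio alone does not show which of the libraries differed. Uhrf1 had 265.9 CPM in MPC replicate 1, and 187.2 and 177.4 CPM in replicates 2 and 3. Tet3 (0.54 beside a median of 0.26 and an upper quartile of 0.46) and Dnmt3a (0.49 beside 0.29 and 0.48) lay above the upper quartile of their similar genes. Dnmt3b (-0.11 beside a median of -0.08) lay at the middle. The biological coefficient of variation was 17.94% within MPC and 3.01% within MPC-PTX. The SD of log2 CPM of Tet2 was 0.94 in MPC and 0.14 in MPC-PTX, and that of Tet3 was 0.29 and 0.01. What set replicates 3 and 1 apart was not tested. Without that library 4 of 7 members were higher (Tet3, Tet2, Dnmt3a and Dnmt3b), beside 25.4% of all tested genes, 0 were lower, beside 27.1%, and 4 were called in either direction, beside 52.5%.

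**Figure D4:**
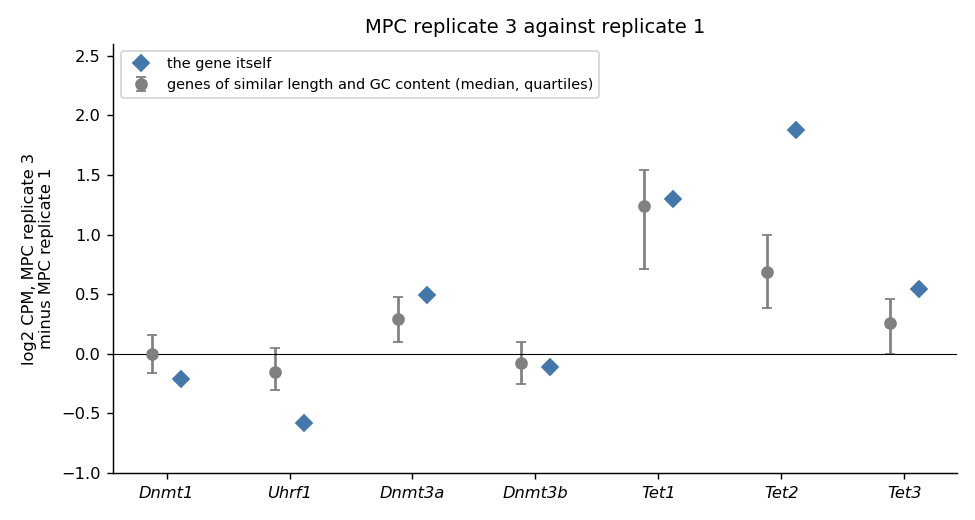
Log2 CPM of MPC replicate 3 minus that of MPC replicate 1 for the 7 tested genes (diamonds), beside the median and quartiles of tested genes of similar transcript length and GC content (grey). Tet2 (1.88), Tet3 (0.54) and Dnmt3a (0.49) lie above the quartiles of their similar genes, the last by little. Uhrf1 (-0.58) and Dnmt1 (-0.21) lie below theirs, while Tet1 (1.3) and Dnmt3b (-0.11) lie within.

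The genes whose profile over the 6 libraries was nearest to a member were found by the Euclidean distance of centred log2 CPM, among genes within 1 log2 unit of its mean level. For Tet3 these were Fam133b (distance 0.123), Pals2 (0.13) and Nsd3 (0.146), of 4509 genes compared. Fam133b had 34.00, 36.30 and 51.80 CPM in MPC and 71.20, 76.80 and 77.50 CPM in MPC-PTX, with MPC replicate 3 the highest MPC library as for Tet3. For Tet2 the nearest were Psd3 (0.201), Rlf (0.217) and Mindy2 (0.22) of 2938, and each of them was also highest within MPC in replicate 3. For Dnmt3b they were Tesk2 (0.16), Ifitm10 (0.163) and Casp4 (0.166) of 1548. The rank comes from the same 6 libraries and says nothing of shared control.

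The other steps of the pathway were read by counts from lists, beside the 14.1% of all tested genes called higher and the 15.6% called lower. Of 10 readers of methylated or hemimethylated CpG, 1 of 10 tested was higher and 0 were lower: Mbd1, a methyl-CpG binding repressor (log2 fold change 0.37, standard error 0.08, adjusted p = 0.014, edgeR). Of 25 partners and recruiters of the enzymes, 22 were tested, 2 were higher and 1 was lower. The higher genes were Cxxc1, a reader of unmethylated CpG (0.43, adjusted p = 0.018), and Suv39h2, a histone H3K9 methyltransferase (0.52, adjusted p = 0.04, edgeR). Mbd1, Cxxc1 and Suv39h2 were the genes called higher in these lists and were named after their values were seen, and each lost its call without MPC-PTX replicate 2 and without MPC-PTX replicate 3 (highest adjusted p 0.0745, 0.079 and 0.135, edgeR). Without MPC replicate 3 the counts were 5 readers higher and 1 lower, and 5 partners higher and 6 lower, beside 25.4% and 27.1% of all tested genes.

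The partner that fell was Zfp57 (chromosome 17, 37001163 to 37010635, plus strand), a zinc finger protein that binds methylated imprinting control regions and keeps their methylation through TRIM28. It had 3.135, 2.784 and 3.363 CPM in MPC and 1.068, 1.127 and 1.545 CPM in MPC-PTX. Every MPC-PTX library was below every MPC library. The log2 fold change was -1.33 (standard error 0.21, adjusted p = 0.00361, edgeR), and the call held in all 15 settings. The counts were low, 54 to 70 in MPC and 25 to 26 in MPC-PTX.

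Among the genes of oxidised base repair and the GADD45 family, 0 of 10 tested were higher and 2 were lower, Gadd45b and Gadd45a. Gadd45b, a stress-response gene linked to active demethylation (chromosome 10, 80930073 to 80932204, plus strand), had 128.5, 166.1 and 156.1 CPM in MPC and 71.04, 70.2 and 65.17 CPM in MPC-PTX, without overlap. Its log2 fold change was -1.13 (standard error 0.1, adjusted p = 0.000346, edgeR). Gadd45a was at -0.29 (adjusted p = 0.0366) and passed in 6 of 15 settings. Gadd45a and Tdg were named after their values were seen. Tdg, the glycosylase that removes the oxidised bases, had 134.1, 129.1 and 118.2 CPM in MPC and 134.6, 139.0 and 138.2 CPM in MPC-PTX (log2 fold change 0.11, adjusted p = 0.259, edgeR).

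The supply of methyl groups and of the TET cosubstrate was read in the same way. In the methyl donor cycle, which makes S-adenosylmethionine, 1 of 14 tested genes was higher and 0 were lower, with a median log2 fold change of 0.14. Among enzymes that make or use 2-oxoglutarate or clear its competitors, 1 of 13 was higher (Ogdh, 0.36, adjusted p = 0.0114) and 1 was lower (Sdha, a succinate dehydrogenase subunit, -0.31, adjusted p = 0.00654, edgeR). The higher methyl donor gene was Mtap (0.23, adjusted p = 0.0233, edgeR), which lost its call in 8 of 15 settings. Ogdh lost its call without each of the 3 MPC-PTX libraries in turn (adjusted p up to 0.0588, edgeR), and Sdha kept it in all 15. Ogdh, Sdha and Mtap were named after their values were seen. Without MPC replicate 1 the methyl donor list had 5 genes higher and the 2-oxoglutarate list 4, and without MPC replicate 3 they had 4 and 5 genes lower. With the GC and length correction 3 and 4 genes were higher. Over the whole table, 2201 genes were higher without MPC replicate 1 and 2657 with the correction, beside 1668 in the main fit. Without MPC replicate 3, 27.1% of all tested genes were lower.

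**Figure D5:**
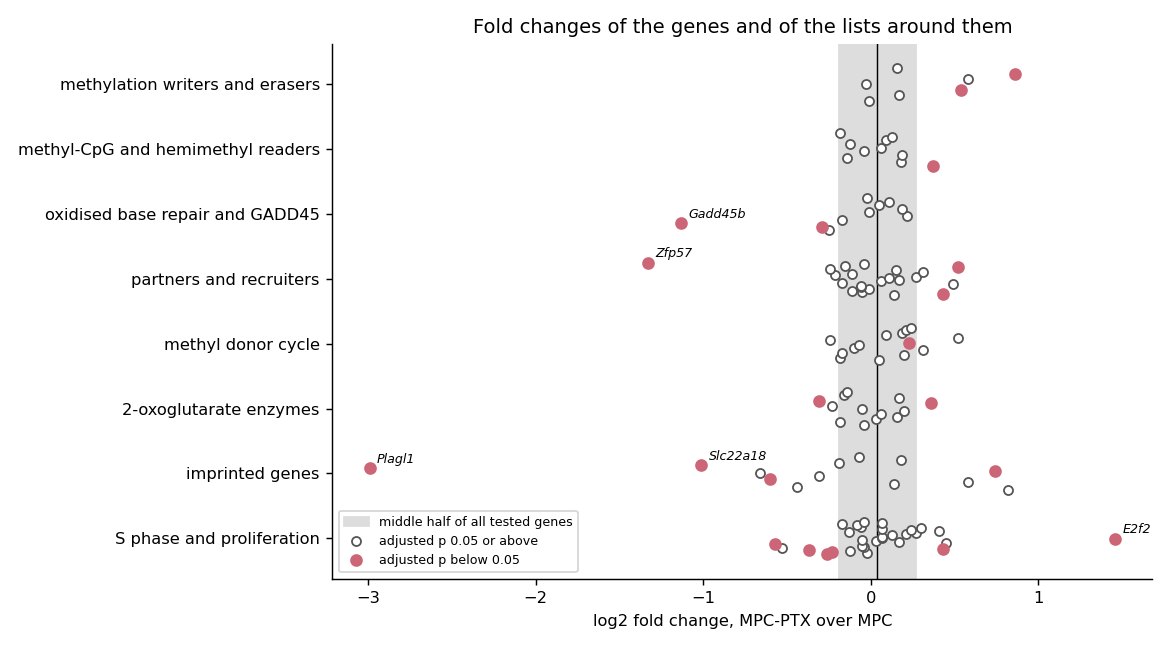
Log2 fold change of MPC-PTX over MPC of each tested gene, 1 row a list, with genes at an adjusted p below 0.05 (edgeR) filled, a grey band over the quartiles of all tested genes (-0.19 to 0.27) and a line at their median (0.04). Tet3 and Dnmt3b are the filled points of the top row, and Gadd45b, Zfp57, Plagl1, Slc22a18 and E2f2 are the filled points beyond a log2 fold change of 1; height within a row has no meaning.

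Genes known to be controlled by DNA methylation were read as a further description, since no methylation was measured. Of 20 germline genes that somatic cells silence by promoter methylation, 19 had at most 10 counts in every library and 7 had 0 counts throughout, among them Dazl, Mael and Asz1. Their summed level was 2.125 to 2.45 CPM in MPC and 2.495 to 3.375 CPM in MPC-PTX. The 1 tested gene, Brdt, differed by 0.25 on the log2 scale, its libraries overlapped, and it did not pass (standard error 0.19, adjusted p = 0.366, edgeR).

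Of 28 imprinted genes in the table, 13 were tested, 1 was higher and 3 were lower. Plagl1, a paternally expressed zinc finger gene (chromosome 10, 13060504 to 13131694, plus strand), had 11.79, 17.94 and 30.8 CPM in MPC and 2.349, 2.57 and 2.733 CPM in MPC-PTX. Its log2 fold change was -2.99 (standard error 0.37, adjusted p = 0.00166, edgeR). Slc22a18 (chromosome 7, 143473736 to 143499334) fell from 7.597 ± 0.279 to 3.772 ± 0.287 CPM (SD, n = 3; log2 fold change -1.01, standard error 0.12, adjusted p = 0.00118, edgeR). Its neighbour Phlda2 (chromosome 7, 143501545 to 143503150), a maternally expressed growth restrainer, rose by 0.74 (standard error 0.15, adjusted p = 0.00874, edgeR), so the genes called in that imprinted cluster moved in opposite directions. Mcts2 was at -0.60 (adjusted p = 0.0295) and passed in 11 of 15 settings. Phlda2 and Mcts2 were named after their values were seen. The counts do not separate parental alleles.

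Dnmt1 and Uhrf1 are made mostly in S phase, so replication and proliferation genes were read beside them. Of 30, all tested, 2 were higher and 4 were lower, with a median log2 fold change of 0.0, beside 14.1% and 15.6% of all tested genes. Without MPC replicate 1 the count higher was 10, with the GC and length correction it was 6, and without MPC replicate 3 the count lower was 9. The whole table moved as well in these settings. Its genes higher went from 1668 to 2201 and 2657, and its genes lower from 1841 to 3227 (27.1% of tested genes). Their summed level was 5910 to 6600 CPM in MPC and 6270 to 6370 CPM in MPC-PTX. E2f2, an E2F transcription factor, had the largest difference, 4.622, 3.093 and 3.844 CPM in MPC against 10.72, 9.873 and 11.35 CPM in MPC-PTX (log2 fold change 1.46, standard error 0.16, adjusted p = 0.000776, edgeR). Cdk1, the mitotic kinase, fell by 0.57 on the log2 scale (standard error 0.06, adjusted p = 0.000906, edgeR). Ccne2 (-0.53, adjusted p = 0.214) and the licensing factor Cdt1 (0.45, adjusted p = 0.124) did not pass. The other called genes were Ccne1, higher (log2 fold change 0.43), and Ccnb1, Aurka and Birc5, lower (-0.37, -0.26 and -0.23). The median thus joins genes that moved in opposite directions. Ccne1 and Aurka passed in 9 of 15 settings, Birc5 in 11 and Ccnb1 in all 15. Ccne1, Ccnb1, Aurka and Birc5 were named after their values were seen.

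The label was checked against cell type markers. Epithelial keratins and claudins were abundant in both lines, with a summed level over 7 simple epithelium markers of 7880 to 9060 CPM in MPC and 4631 to 4759 CPM in MPC-PTX, and 6 of 7 were lower in MPC-PTX, among them Krt8 (log2 fold change -1.02) and Cldn4 (-1.13). The exception, Cdh1, is the gene named in the genotype, and had 131.1 to 136.1 CPM over all 6 libraries, a count per gene that does not show which exons were read. Of 14 gastric markers, 10 had at most 10 counts in every library, and 4 of these (Tff1, Tff2, Gkn2 and Pgc) were at 0 throughout. The list summed to 577.5 to 752.7 CPM in MPC and 199.2 to 205.2 CPM in MPC-PTX, and all 4 tested genes were lower. Log2 fold changes were -7.54 for Ctse, -8.62 for Anxa10 and -3.08 for Gkn3 (adjusted p = 8.07e-06, 2.22e-05 and 0.000594, edgeR). Cldn18 fell less (-0.46, adjusted p = 0.00262, edgeR). It had 199.0, 196.9 and 202.6 CPM in MPC-PTX, most of the list sum there. Summed levels of 8 fibroblast markers (9.882 to 10.91 CPM in MPC and 8.629 to 10.04 in MPC-PTX), 8 leukocyte markers (0.3609 to 1.009 and 0.8116 to 0.9468) and 6 endothelial markers (3.403 to 4.835 and 3.066 to 3.386) were low in both lines. Of the 2 fibroblast markers tested, 1 was lower, Col1a1 (log2 fold change -0.80, standard error 0.13, adjusted p = 0.00389, edgeR). The part of the lower epithelial and gastric genes in the values of Tet3 and Dnmt3b was not tested.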

How the data were processed

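Poly-A RNA of 3 libraries per line was sequenced. Reads were filtered (fastp 0.22.0) and aligned (HISAT2), and the authors deposited 1 table of raw counts a library, neither normalized nor pooled. The genome build, annotation, counter and use of strand are not given in the sources used here. Total counts ran from 16574580 to 23148182, and series and sample tables held the same values.

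The 8 genes were matched by symbol. The members and lists were chosen with earlier results of these data known. Counts were tested in edgeR 4.0.16 (R 4.3.3; TMM, filterByExpr with a minimum count of 10, robust glmQLFit, glmQLFTest), with Benjamini-Hochberg adjustment over the 11795 genes tested and a threshold of 0.05. The standard error is that of the log2 fold change. Log2 CPM used a prior count of 2. In simulated MPC-PTX against MPC counts (11686 genes), edgeR recovered 95% of 200 genes moved by 1.5 on the log2 scale, and 8.65% of its calls were false. DESeq2 recovered 95%, with 18.5% of its calls false (11795 genes). That change is larger than any member's, so recovery at the members' size was not tested. The simulation also gave both lines the same dispersion for each gene. In the data the biological coefficient of variation was 17.94% within MPC and 3.01% within MPC-PTX. These rates therefore do not cover that unequal spread. With 3 libraries against 3, an exact permutation test of a single value cannot go below its smallest p of 0.1.

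Genes named were every member, list genes with an adjusted p below 0.05 and a log2 fold change beyond 1, the 4 S phase genes with the largest change, and the 3 nearest profiles of the 3 members with the largest change. Where 5 list genes or fewer were called, those genes were also named, as were all called S phase genes. Tdg was named for its role. These additions were made after their values were seen.

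GENCODE M21 (GRCm38) gave positions, transcript lengths and GC content, with an Ensembl identifier found for 21902 of 21959 rows. 51 rows had no symbol. Promoters came from RefSeq (GRCm38.p6), which held a window for all 8 genes. Alternatives were DESeq2 1.42.0, its size factors, library size alone, no filter, at least 10 counts in every library, the replicate number as a block, a loess correction for GC content and length (span 0.3), both together, and each library left out in turn. Of the imprinted list, 8 noncoding genes such as H19, Airn and Meg3 were not analysed here.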

Additional observations from a re-analysis of the deposited data

How the results depend on the processing

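Each result that answers a comparison was read again in every alternative setting, and the numbers here count pairs of a result and a setting. In 171 pairs the result was unchanged. These were counts within 1.5 times, or fold changes with the same call, which could change sign while not called. In another 30 pairs a count moved by more than 1.5 times. In 4 pairs a value passed the test in place of not passing, and in 5 the reverse. The same result can be in more than 1 of these groups. Genes called higher, 1668 of all tested, were 2657 with the GC and length correction and 2660 with the replicate block and that correction, and ran from 803 to 3020 with each library left out. Genes called lower, 1841, ran from 1077 to 3227. Genes beyond a log2 fold change of 1 upward, 417, were 242 with at least 10 counts in every library. Members called higher, 2, were 1 with DESeq2 and 1 to 4 with each library left out. Over the pathway and comparison lists, 8 higher calls became 20 with the correction and 21 with the block and correction, and ran from 2 to 28 with each library left out, and 11 lower calls ran from 7 to 31.

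Leaving out each library gave log2 fold changes of 0.07 to 0.28 for Dnmt3a, 0.45 to 0.62 for Dnmt3b, 0.00 to 0.36 for Uhrf1 and 0.24 to 1.18 for Tet2. Dnmt3b was 0.51 with DESeq2 (adjusted p = 0.0585). The cause of these moves was not tested, except that each leave-one-out fit has fewer libraries. Samples with the same replicate number did not all deviate together (Pearson r across genes 0.151, -0.0227 and 0.173). Not every sample correlated best with its own number. The deviations were taken from means of 3 libraries, so this check cannot decide whether the numbers pair the libraries. With the replicate block Tet3 was 0.88 (adjusted p = 0.00288, edgeR), Dnmt3b 0.55 (0.0409), Tet2 0.75 (0.0819) and Uhrf1 0.18 (0.223). Only the block with the correction brought Tet2 past the threshold among fits of all libraries, at 0.54 (adjusted p = 0.0326, edgeR). Dnmt3l, at 0 to 1 counts a library, was below the filter on low counts.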
